A study of Mus musculus with 12 samples.

Results

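The aryl hydrocarbon receptor pathway of the mouse retina is described here through 6 genes, the receptor gene Ahr, its partner gene Arnt, its repressor gene Ahrr and the target genes Cyp1a1, Cyp1b1 and Tiparp. All probes assigned to these genes by their RefSeq accession were taken, which gave 10 of the 39429 probes on the array. The genes were chosen by a look at earlier results of these arrays, in which Ahrr had low ratios with silicate particles. Those are the log2 ratios of its brighter probe, so all values of Ahrr are given as a description, with no test. Of the 10 probes, 9 passed the filter on dim probes, and the probe of Cyp1a1 did not.

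The series asked how particles placed in the eye change gene expression in the retina. Male C57BL/6 mice 5 weeks old received an intravitreal injection into the right eye, and retinas were taken 7 days later. The 4 particle groups were gold of 20 nm, gold of 100 nm, silicate of 20 nm and silicate of 100 nm, and the control was PBS, a buffered salt solution. All groups, PBS included, shared the injection itself, and no uninjected eye is among the samples. Each group had 12 mice, and 4 retinas were pooled per tube, which left 3 tubes per group. Each of 12 two-colour arrays set a particle tube labelled with Cy5 against PBS labelled with Cy3, with 1 array of each particle group on each of 3 slides. The dyes were not exchanged, so a dye effect of a probe is part of every particle to PBS ratio and cancels between particle groups. Sizes appear as nM in the sample labels and as diameters in nm in the protocol, and nm is used here.

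As background, the aryl hydrocarbon receptor waits in the cytoplasm in a complex with the chaperone Hsp90 and the co-chaperone p23. A ligand, such as a dioxin, a plant indole or a product of tryptophan breakdown, sends it to the nucleus, where it pairs with Arnt and binds a short DNA element whose core is GCGTG. Target genes include the oxidising enzymes of the Cyp1 family, Tiparp, which ADP-ribosylates the receptor, and Ahrr, which competes for Arnt and the element. Tiparp and Ahrr thereby act back on the receptor. In the eye, loss of CYP1B1 in people is a known cause of congenital glaucoma.

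The sequences before the starts of the repressor and target genes are shown because these genes are the ones the receptor is known to act on. They are the 250 bases upstream of the start that RefSeq gives, from GRCm38.p6, read along the strand of the gene, with each GCGTG, or CACGC where the core is on the other strand, in capitals. The windows are chr13:74292332-74292581 on the minus strand for Ahrr, chr9:57697363-57697612 on the plus strand for Cyp1a1, chr17:79715062-79715311 on the minus strand for Cyp1b1 and chr3:65528197-65528446 on the plus strand for Tiparp.
Ahrr: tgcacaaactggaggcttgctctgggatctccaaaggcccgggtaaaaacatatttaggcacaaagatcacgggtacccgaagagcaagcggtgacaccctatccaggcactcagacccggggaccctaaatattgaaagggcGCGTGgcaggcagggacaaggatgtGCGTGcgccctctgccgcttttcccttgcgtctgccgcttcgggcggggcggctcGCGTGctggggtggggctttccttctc
Cyp1a1: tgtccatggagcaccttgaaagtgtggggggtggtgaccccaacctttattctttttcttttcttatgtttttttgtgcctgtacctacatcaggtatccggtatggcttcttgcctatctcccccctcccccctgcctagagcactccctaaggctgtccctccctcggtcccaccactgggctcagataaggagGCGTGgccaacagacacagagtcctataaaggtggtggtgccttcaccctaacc
Cyp1b1: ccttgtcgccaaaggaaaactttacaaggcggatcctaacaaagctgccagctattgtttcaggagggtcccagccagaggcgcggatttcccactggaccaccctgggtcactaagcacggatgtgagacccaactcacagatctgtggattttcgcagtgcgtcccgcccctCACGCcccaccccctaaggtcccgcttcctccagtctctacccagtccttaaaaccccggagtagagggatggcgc
Tiparp: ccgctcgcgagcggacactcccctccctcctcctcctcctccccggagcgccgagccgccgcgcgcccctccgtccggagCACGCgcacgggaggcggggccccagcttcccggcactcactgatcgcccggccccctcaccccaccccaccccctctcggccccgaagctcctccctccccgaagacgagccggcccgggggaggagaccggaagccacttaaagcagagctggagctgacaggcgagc

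Both strands were searched. Ahrr held GCGTG 3 times, with first bases 107, 82 and 27 bases before the start. Cyp1a1, Cyp1b1 and Tiparp each held it 1 time, at 54, 76 and 170 bases, and so did Arnt, at 29 bases. Among all 32851 windows of 250 bases in the table, 28.2% held GCGTG at least 1 time and 2.77% at least 3 times. The longer form TNGCGTG occurred 1 time in the Ahrr window, not in the other 4 windows, and in 4.1% of all windows. GCGTG is also part of sites that other factors of the same family bind, the hypoxia-inducible factors among them. A match describes the letters only, and the well-known enhancer of Cyp1a1 lies further upstream than these windows reach.

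The arrays differed by slide. Rod genes marked the tissue as retina on all arrays, with normalized log2 intensities of 15.68 to 18.13 for Gnat1, Sag and Nrl. The median log2 ratio of macrophage and microglia markers (11 of 12 measured) was -3.01 to -1.94 on slide 1, 0.27 to 1.13 on slide 2, -0.71 and -0.44 for gold on slide 3, and 3.32 and 3.58 for silicate on slide 3. Over all genes, the ratios of the slide 1 arrays correlated with those of the slide 3 silicate arrays at -0.73 to -0.54. Since the labels name both dyes on each array, and since the PBS tubes differed among themselves, no ratio was turned. PBS levels are read from Cy3, and the 4 arrays of a slide are assumed to share a PBS tube, since their Cy3 levels were close for most probes. The neutrophil markers were an exception on slide 3, with a summed log2 level in Cy3 of 11.92 and 11.98 on the gold arrays and of 14.72 and 13.93 on the silicate arrays.

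**Figure D1:**
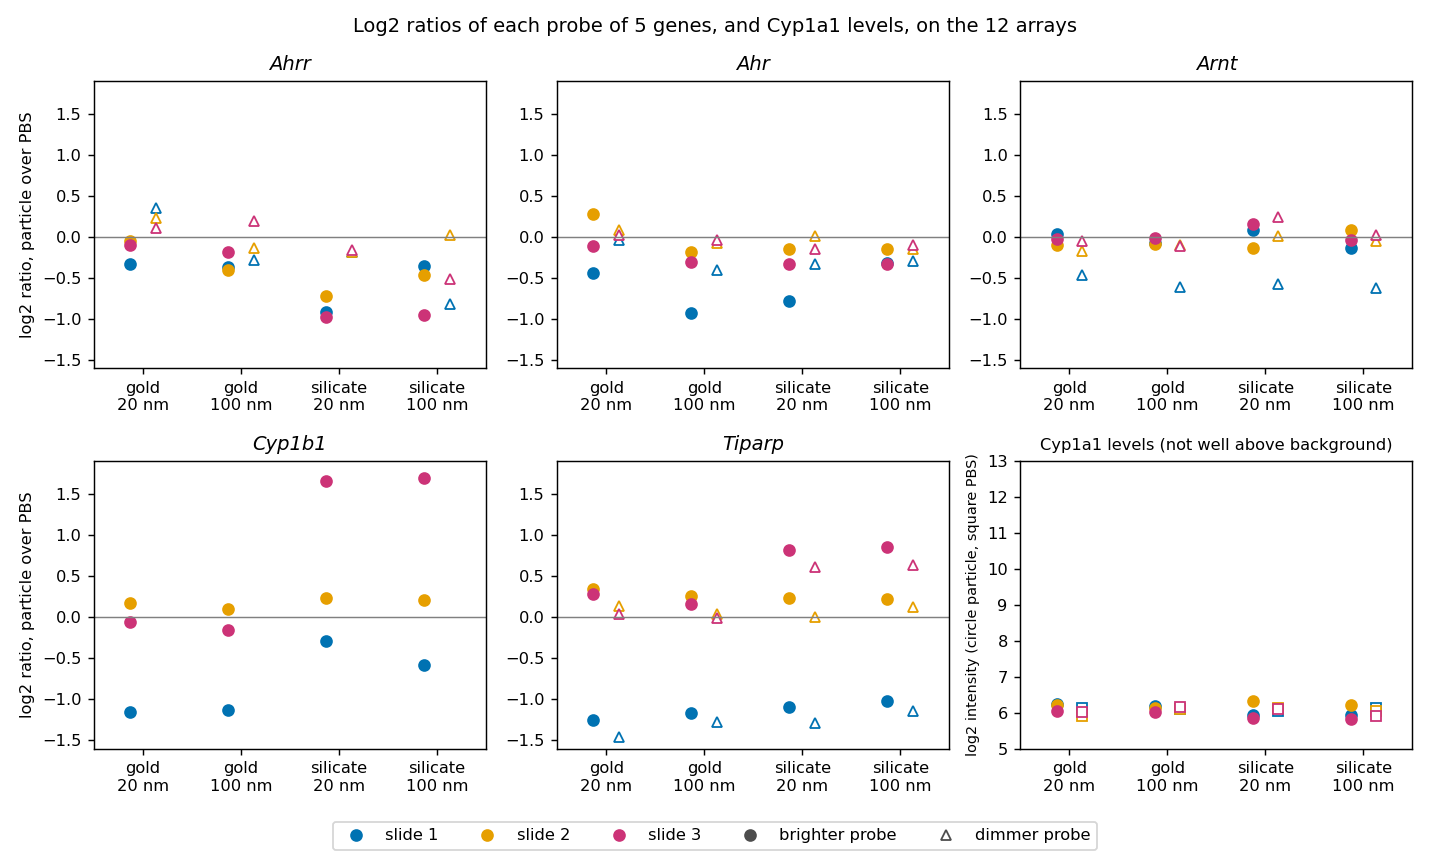
Log2 ratio of particle over PBS for every measured probe on each of the 12 arrays, by particle group, with colour for the slide, filled circles for the probe that stands for the gene and open triangles for the other probe. The last panel gives log2 intensities of Cyp1a1, for which no ratio is drawn. Ahrr lies below 0 on all 12 arrays by its main probe, while Cyp1b1 and Tiparp run from below -1 on slide 1 to their highest values in the silicate arrays of slide 3.

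Ahrr, the repressor of the receptor, was lower than PBS on all 12 arrays by its main probe, and it was lowest with silicate of 20 nm. With silicate of 20 nm the log2 ratios were -0.92, -0.72 and -0.98 on slides 1, 2 and 3, a mean of -0.87 ± 0.13 (SD, n = 3), or 0.545 of the PBS level. With silicate of 100 nm they were -0.36, -0.46 and -0.95, a mean of -0.59 ± 0.32. With gold of 100 nm they were -0.36, -0.40 and -0.18, a mean of -0.31 ± 0.12. Gold of 20 nm gave the values nearest to PBS. They were -0.33, -0.055 and -0.10, a mean of -0.16 ± 0.15. Every silicate 20 nm ratio was lower than every gold ratio, while the silicate 100 nm ratios of slides 1 and 2 were close to those of gold of 100 nm. Ahrr was chosen for low ratios of this probe with silicate, so the gap is no independent support. The share of all genes with such a gap was not counted.

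The normalized log2 intensities show on which side of the ratio these values arose. PBS was at 12.23 to 12.33 on slide 1, at 12.14 to 12.16 on slide 2 and at 12.06 to 12.17 on slide 3. Ahrr thus varied little between the PBS tubes. The particle channel read 12.01, 12.09 and 12.07 for gold of 20 nm on slides 1, 2 and 3, and 11.88, 11.76 and 11.93 for gold of 100 nm. For silicate it read 11.31, 11.44 and 11.1 at 20 nm, and 11.89, 11.68 and 11.11 at 100 nm. The order of the group means was PBS, gold of 20 nm, gold of 100 nm, silicate of 100 nm and silicate of 20 nm. Of the neighbours in this order, the arrays of gold of 20 nm and of 100 nm did not overlap, and every other pair of neighbours did. How many of all genes separate in this way was not counted.

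**Figure D2:**
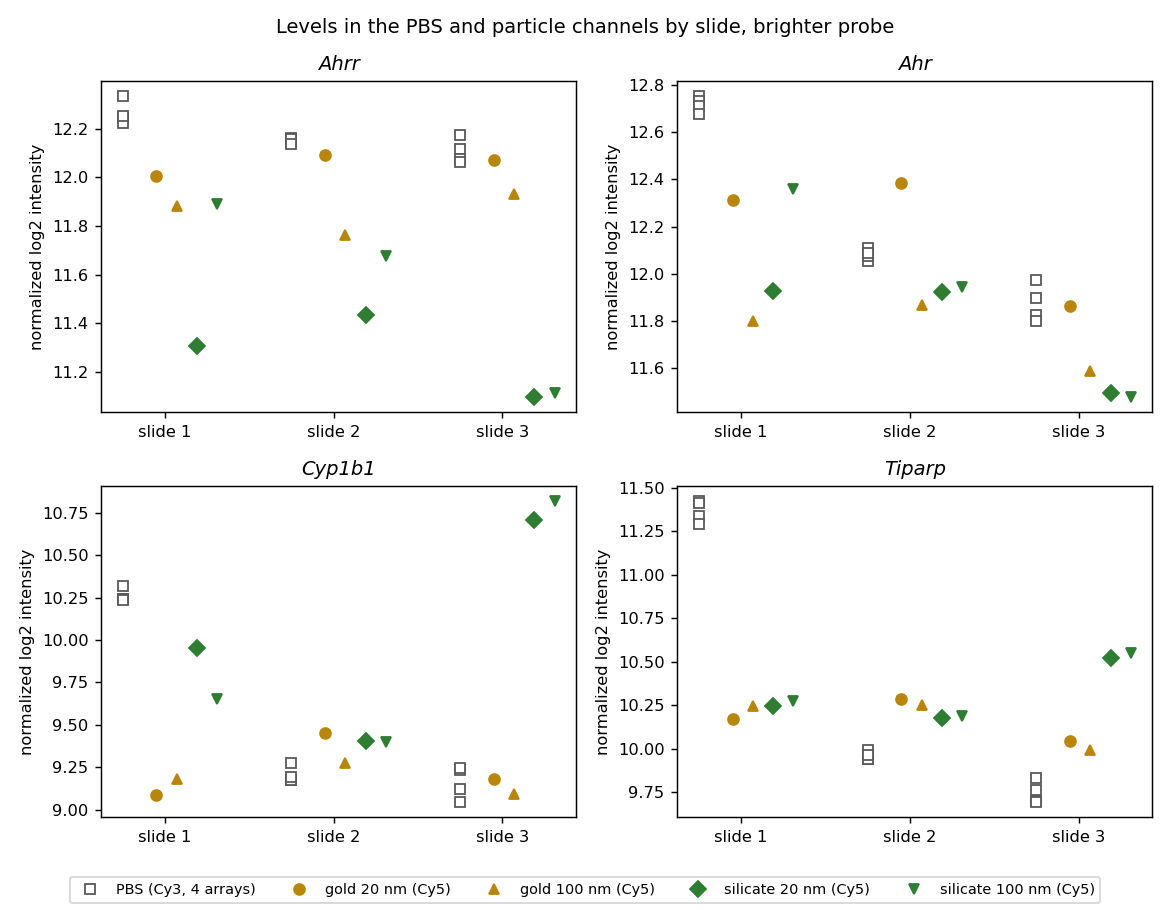
Normalized log2 intensity of the main probe of 4 genes by slide, with open squares for PBS (Cy3, 4 arrays per slide), gold-coloured symbols for gold and green symbols for silicate (Cy5, 1 array each). For Ahrr the PBS squares stay between 12.06 and 12.33 and the silicate 20 nm symbols lie between 11.1 and 11.44. For Tiparp the PBS squares of slide 1 stand above all other points, and for Cyp1b1 above all but the silicate symbols of slide 3.

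Within each slide, silicate was below gold for Ahrr, by -0.29, -0.37 and -0.82 on slides 1, 2 and 3, with the particle sizes averaged. The mean difference was -0.49. Over slides 1 and 2 alone it was -0.33. Without the silicate arrays of slide 3 it was -0.38, and the means against PBS were then -0.82 for silicate of 20 nm and -0.41 for silicate of 100 nm. On those slide 3 arrays the median log2 ratio of the rod markers (8 of 8 measured) was -1.01 and -0.98, and that of the macrophage markers was 3.32 and 3.58. The rod markers were below gold with silicate on all 3 slides, as Ahrr was, by -0.24, -0.051 and -1.13 on slides 1, 2 and 3. None of the 8 rod genes was above 0 for silicate against gold (median -0.44), and, as for all other genes in that comparison, none passed in limma. Against PBS, the rod medians with silicate of 20 nm were 0.26 and -0.048 on slides 1 and 2, where Ahrr read -0.92 and -0.72. The summed rod level, as log2 intensity, was 19.69 to 19.86 in the gold tubes, 18.9 to 19.72 in the silicate tubes and 19.12 to 19.91 in PBS. The part of the rod and macrophage changes in the Ahrr values was not tested. In tissue pooled like this, fewer cells of a type and less RNA per cell cannot be told apart.

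A second Ahrr probe, near the low end of the intensity range, followed this pattern only in part. Its log2 ratios were 0.36, 0.23 and 0.10 with gold of 20 nm, and -0.28, -0.14 and 0.20 with gold of 100 nm. They were -0.18, -0.19 and -0.16 with silicate of 20 nm, and -0.82, 0.018 and -0.52 with silicate of 100 nm. Both probes had the same sign on 7 of 12 arrays, and the main probe was lower by -0.37 ± 0.34 on average (SD over arrays, n = 12). In the log2 ratios, silicate was below gold by the second probe too, by -0.54, -0.13 and -0.49 on slides 1, 2 and 3. On the silicate 100 nm array of slide 1, its PBS level was 8.40, against 7.16 to 7.28 on the other arrays of that slide. The value of -0.82, and with it that of -0.54, thus rests on a PBS reading that stands apart. In the particle channel of slide 1, silicate averaged 7.34 and gold 7.23. The silicate mean includes that same array, whose 7.58 was the highest particle reading of this probe. Silicate of 20 nm read 7.10 on slide 1, between gold of 20 nm at 7.52 and gold of 100 nm at 6.95. The order of silicate and gold on slide 1 is thus not settled. On slides 2 and 3 silicate was lower in the particle channel, at 6.94 and 6.83 against 7.17 and 7.43. All 24 channel readings of this probe were well above background.

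**Figure D3:**
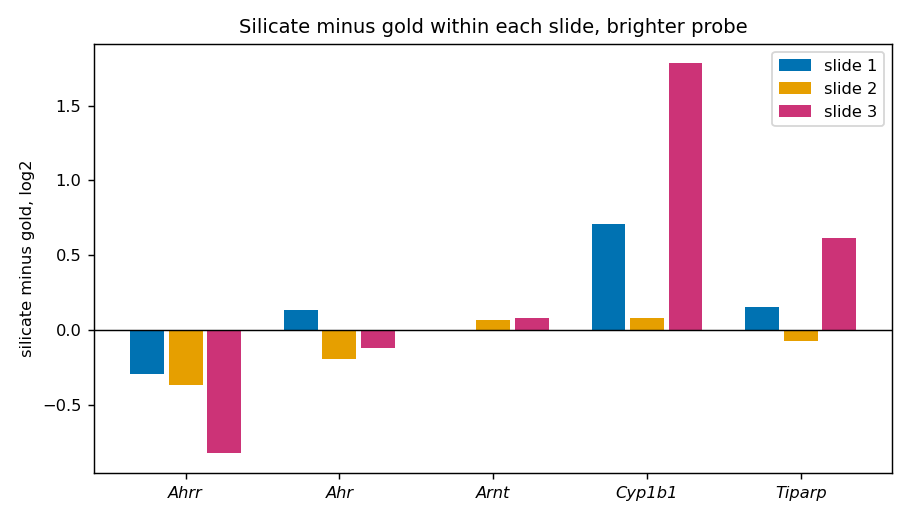
Silicate minus gold within each slide, as the difference of the mean log2 ratios of 2 arrays each, for the main probe of 5 genes. Bars are single slides with no error bar. Ahrr is below 0 on all 3 slides and Cyp1b1 above 0 on all 3, while the bars of Ahr and Tiparp change sign.

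Ahr, the receptor itself, was below PBS on 11 of 12 arrays, and over all 4 groups it changed by -0.31 on the log2 scale (SE 0.086, 95% interval -0.50 to -0.12, adjusted p = 0.0381, limma), or to 0.805 of the PBS level. The log2 ratios were -0.44, 0.28 and -0.11 on slides 1, 2 and 3 with gold of 20 nm, and -0.93, -0.18 and -0.31 with gold of 100 nm. With silicate they were -0.78, -0.15 and -0.33 at 20 nm, and -0.32, -0.14 and -0.32 at 100 nm. The values of slide 1 were the lowest of each group except for silicate of 100 nm, where slides 1 and 3 were alike. PBS was higher on slide 1, at 12.68 to 12.75, than on slide 2, at 12.05 to 12.11, and slide 3, at 11.8 to 11.97.

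Of the 4 tested genes besides Ahrr, this was the 1 call in any comparison. In the comparison of all 4 groups with PBS, 14.8% of all genes were called and 6.34% were called lower, so 1 of 4 is to be read against that share. The 12 arrays share PBS tubes within a slide, and with the slide as a random block the adjusted p was 0.276. It was 0.149, 0.109 and 0.141 without slide 1, 2 or 3, 0.0737 without the silicate arrays of slide 3, and 0.0503 with median centring in place of loess. With the slide as a fixed replicate block it was 0.00141, and Ahr then also passed with gold of 100 nm (adjusted p = 0.0214) and silicate of 20 nm (adjusted p = 0.0275). In that fit 34.8% of all genes were called for all 4 groups, 6.71% with gold of 100 nm and 8.76% with silicate of 20 nm. The fixed block takes the shift of a whole slide, and with it the differences between the assumed PBS tubes, out of the error. Arrays that share a PBS tube then count as separate replicates, so its p-values against PBS can be too small. A second Ahr probe, near the low end of the range, gave -0.12 for all 4 groups (adjusted p = 0.096 with each probe fitted by itself), with the sign of the main probe on 10 of 12 arrays.

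By single groups, none of the 4 tested genes passed with any particle against PBS in limma. The share of all genes called was 0.706% with gold of 20 nm, 0.977% with gold of 100 nm, 2.08% with silicate of 20 nm and 0.99% with silicate of 100 nm. Without adjustment, Ahr alone was under 0.05, with gold of 100 nm (-0.47 ± 0.40, SD, n = 3, adjusted p = 0.295) and with silicate of 20 nm (-0.42 ± 0.33, adjusted p = 0.274). Ahr differed between silicate and gold by -0.060, with a 95% interval of -0.44 to 0.32. Between silicate and gold, and between 100 nm and 20 nm, 0 of the 4 genes passed, adjusted or not, and 0% of all genes did after adjustment. Without adjustment 1206 of 23235 genes were under 0.05 for silicate against gold and 230 for 100 nm against 20 nm. Both comparisons and their intervals come from the fit without a slide block, which does not use the pairing by slide. Slide shifts that cancel within a slide thus stay in their error. With the slide as a fixed replicate block, 0 of all genes passed after adjustment in either comparison. For the size comparison the 4 genes differed by -0.11 (Ahr), -0.049 (Arnt), -0.073 (Cyp1b1) and -0.0025 (Tiparp). Ahrr differed there by 0.066.

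Arnt, the partner that the receptor shares with the hypoxia-inducible factors, stayed near PBS by its main probe. The ratios were 0.037, -0.098 and -0.023 with gold of 20 nm on slides 1, 2 and 3, and -0.070, -0.084 and -0.018 with gold of 100 nm. With silicate they were 0.089, -0.13 and 0.16 at 20 nm, and -0.14, 0.085 and -0.039 at 100 nm. The mean over all groups was -0.020 (95% interval -0.094 to 0.055, adjusted p = 0.739, limma), an interval narrower than that of any other tested member. A second probe of Arnt read otherwise on slide 1. It gave -0.46, -0.61, -0.57 and -0.62 there for gold of 20 and 100 nm and silicate of 20 and 100 nm, and -0.17 to 0.24 on the other slides, where PBS was at 8.08 to 8.40 against 8.83 to 8.91 on slide 1. Its mean of -0.21 did not pass (adjusted p = 0.154 with each probe fitted by itself), and the probes had the same sign on 7 of 12 arrays.

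Cyp1a1, the classical enzyme induced by dioxins, was not well above background in any of the 24 channels. Its log2 intensities were 5.83 to 6.33 in the particle tubes and 5.89 to 6.16 in PBS. It was not tested and has no fold here. No particle channel rose above background. A fall, or a rise too small to clear background, was not detectable at this signal.

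Cyp1b1, an enzyme of the same family that is expressed in vessel walls and ocular tissues, was highest in the silicate arrays of slide 3. Its log2 ratios were -1.16, 0.18 and -0.056 on slides 1, 2 and 3 with gold of 20 nm, and -1.14, 0.10 and -0.15 with gold of 100 nm. With silicate they were -0.29, 0.23 and 1.66 at 20 nm, and -0.58, 0.21 and 1.69 at 100 nm. Within every group the slides lay further apart than any of the group means did. PBS was at 10.23 to 10.32 on slide 1, at 9.17 to 9.27 on slide 2 and at 9.04 to 9.24 on slide 3, and the low ratios of slide 1 have this high PBS level under them. In the particle tubes of slide 1, silicate read 9.95 and 9.65 and gold 9.09 and 9.18. Silicate of slide 3 stood at 10.71 and 10.82.

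Silicate exceeded gold for Cyp1b1 on all 3 slides, by 0.71, 0.079 and 1.78. The pooled difference of 0.86 did not pass in limma (95% interval -0.21 to 1.93, adjusted p = 0.881), and it was 0.26 without the silicate arrays of slide 3. That value sets silicate of slides 1 and 2 against gold of all 3 slides, and over slides 1 and 2 alone it was 0.40. The macrophage markers moved with these values across slides, from medians of -3.01 to -1.94 on slide 1 to 3.32 and 3.58 in the silicate arrays of slide 3. Their summed log2 level was 13.48 to 14.68 in the gold tubes, 13.7 to 18.53 in the silicate tubes and 13.38 to 17.61 in PBS, and none of the 11 was below background in both channels of an array. Pericyte markers (6 of 6 measured) had medians of 0.22 and 1.17 in the silicate arrays of slide 3 and of -0.097 to 0.27 on the other arrays. Endothelial markers (8 of 8 measured) had medians of -0.82 to -0.38 on slide 1, -0.13 to -0.027 on slide 2 and for gold on slide 3, and 0.32 and 0.45 for silicate on slide 3. For silicate against gold all 8 were above 0 (median 0.30), and none passed. Their summed log2 level was 13.63 to 14.27 in the gold tubes, 14.08 to 14.73 in the silicate tubes and 14.19 to 14.77 in PBS. The part of these cells in the Cyp1b1 values was not tested.

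**Figure D4:**
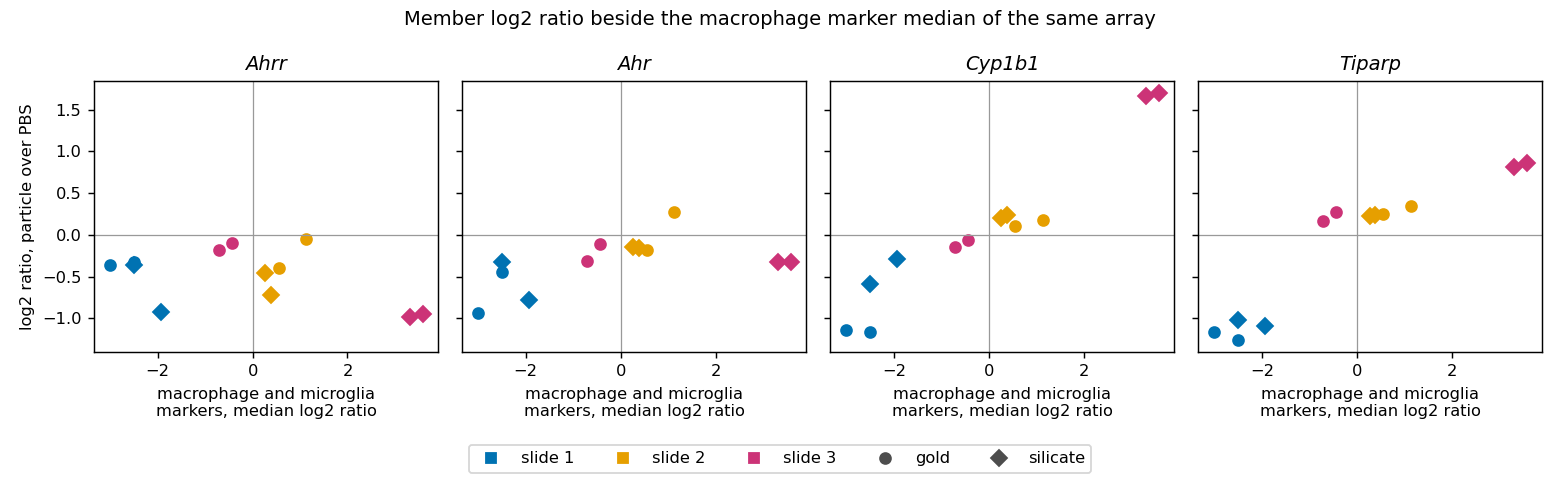
Log2 ratio of the main probe of 4 genes on each array against the median log2 ratio of 11 macrophage and microglia markers on the same array, with colour for the slide, circles for gold and diamonds for silicate. The 12 points share PBS tubes within a slide. Cyp1b1 and Tiparp lie lowest on slide 1, where the marker median is -3.01 to -1.94, and highest where it is 3.32 and 3.58, while Ahrr is lowest in silicate points of slides 1 and 3, at opposite ends of the marker axis.

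Tiparp, the ADP-ribosyltransferase induced by the receptor, differed more between slides than between the means of the particle groups. On slide 3, silicate was above gold. The log2 ratios were -1.25, 0.34 and 0.28 on slides 1, 2 and 3 with gold of 20 nm, and -1.17, 0.26 and 0.16 with gold of 100 nm. With silicate they were -1.09, 0.23 and 0.82 at 20 nm, and -1.02, 0.22 and 0.86 at 100 nm. The particle tubes read 9.99 to 10.55, a narrow range, while PBS read 11.29 to 11.42 on slide 1 and 9.69 to 9.99 on the other slides. The negative ratios of slide 1 therefore lie over a high PBS tube, in which the summed levels of macrophage and neutrophil markers were also at their highest among the PBS tubes. Neutrophil markers (7 of 8 measured) had a summed log2 level of 18.44 to 18.56 in PBS of slide 1 and of 11.91 to 14.72 in PBS of the other slides, and their part in the Tiparp values was not tested.

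The mean of Tiparp over all groups was -0.11 (95% interval -0.65 to 0.42, adjusted p = 0.79, limma), and it was 0.40 without slide 1. Silicate minus gold was 0.16, -0.071 and 0.62 on slides 1, 2 and 3, and the pooled 0.23 had an interval of -0.84 to 1.30. A second probe ran in parallel, with the same sign on 11 of 12 arrays and a constant offset of 0.19 ± 0.049 (SD over arrays, n = 12). Of the 4 genes with 2 probes, Tiparp was the 1 whose probes agreed on every array to within 0.24.

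The other genes of the pathway were read from 5 lists with 44 genes, of which 41 were on the array and 34 were tested. For all 4 particle groups against PBS, 3 of the 34 were higher and 3 lower in limma, where 8.43% of all genes were called higher and 6.34% lower, a share near that of all genes. With median centring in place of loess, the calls over all genes were 2592 higher and 824 lower, against 1958 and 1472. With the slide as a random block, 1 of these 6 genes, Cyp1a2, passed. The probe of Cyp1a2 passed the filter on dim probes through the particle channel only, which favours ratios above 0, so its p-values are not independent of the filter. By single groups, Cyp1a2 passed with gold of 100 nm (0.831% of all genes were called higher there) and with silicate of 20 nm (1.58%), and no other gene did. With the slide as a fixed replicate block, the calls were 2 and 6 of 34 with gold of 20 and 100 nm, 7 and 3 with silicate of 20 and 100 nm, and 13 for all 4 groups. The shares of all genes called in that fit were 4.47% and 6.71% with gold of 20 and 100 nm, 8.76% and 4.03% with silicate of 20 and 100 nm, and 34.8% for all 4 groups. The 13 of 34 are thus near the share of all genes.

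**Figure D5:**
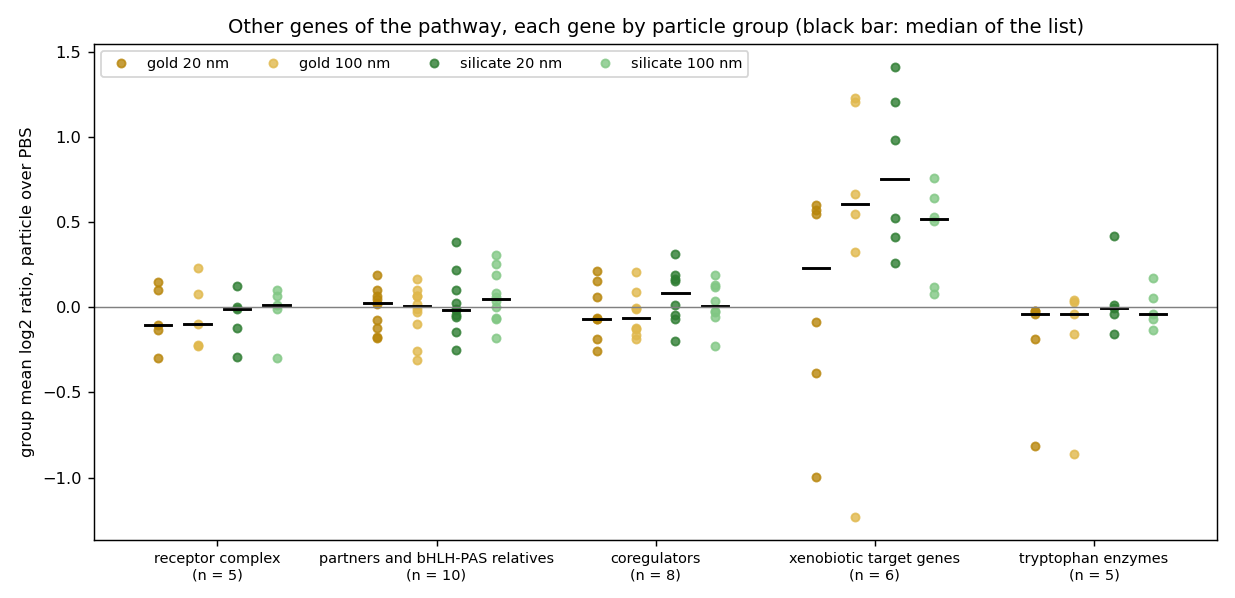
Group mean log2 ratio over 3 arrays of each tested gene of 5 pathway lists, coloured by particle group, with a black bar at the median of the list. The receptor complex, partners and coregulators lie close to 0, and the bars of the xenobiotic target genes run from 0.23 to 0.75. With gold of 20 nm, 3 of the 6 xenobiotic target genes are above 0.

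In the receptor complex, 1 of 5 genes passed for all 4 groups, where 14.8% of all genes were called. Ptges3, which encodes p23, had ratios of -0.46, -0.25 and -0.19 with gold of 20 nm on slides 1, 2 and 3, and of -0.50 to -0.073 on the other 9 arrays, all below 0. Its mean of -0.28 passed (adjusted p = 0.00544), but its 3 other probes gave -0.050, -0.077 and 0.076. The list median was -0.0022, beside -0.0074 over all genes. None of the 8 coregulator genes passed (median -0.0048), and none of the 5 tested tryptophan enzymes, which can make ligands of the receptor, did (median -0.026).

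Among partners and relatives of Arnt, 3 of 10 tested genes passed for all 4 groups, where 14.8% of all genes were called. Hif1a, the hypoxia-inducible factor that also pairs with Arnt, was below PBS on all 12 arrays, from -0.48 to -0.025, with a mean of -0.23 (adjusted p = 0.00544). Epas1, a further hypoxia-inducible factor, had a mean of -0.16 (adjusted p = 0.00917, below 0 on 11 of 12 arrays), but its 2 further probes gave 0.20 and -0.10 and median centring gave 0.00091, so its direction is not settled. Arnt2, a close relative of Arnt, had a mean of 0.12 (adjusted p = 0.0361, above 0 on 12 of 12 arrays), with single values from 0.00011 to 0.43. With the slide as a random block the adjusted p of Hif1a, Epas1, Arnt2 and Ptges3 was 0.136, 0.27, 0.47 and 0.0579.

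The xenobiotic target genes, enzymes that oxidise or conjugate foreign compounds, had list medians of 0.23 and 0.61 with gold of 20 and 100 nm and of 0.75 and 0.52 with silicate of 20 and 100 nm, over 6 tested genes. The medians over all genes were between -0.016 and 0.010. The genes did not all share this direction. Of the 6, 3 and 5 were above 0 with gold of 20 and 100 nm, and 6 and 6 with silicate of 20 and 100 nm. Gsta1 and Gsta2, which are close paralogues, both count in these medians. Ugt1a6a, a glucuronosyltransferase, averaged -0.995 and -1.23 with gold of 20 and 100 nm and 0.41 and 0.077 with silicate of 20 and 100 nm. For all 4 groups, 2 of the 6 were called higher, Cyp1a2 and Gsta1, where 8.43% of all genes were called higher. The filter on dim probes favoured ratios above 0 for Cyp1a2, as described below.

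Group medians of markers of neighbouring tissues are given beside those of the xenobiotic genes. Lens markers (11 of 11 measured) stood at -1.499 and 0.32 with gold of 20 and 100 nm and at 0.16 and 1.02 with silicate of 20 and 100 nm. Pigment epithelium markers (9 of 10 measured) stood at 0.76 and 1.56 with gold of 20 and 100 nm and at 1.28 and 0.67 with silicate of 20 and 100 nm. For all 4 groups 6 of the 9 were called higher, as were 8.43% of all genes. Corneal and ciliary epithelium markers (7 of 8 measured) stood at -0.11, 0.29, 1.23 and 0.53 in the same order. With silicate of 20 nm 3 of the 7 were called higher, as were 1.58% of all genes. The summed log2 level of the corneal and ciliary markers was 14.66 to 15.22 in the gold tubes, 14.86 to 15.71 in the silicate tubes and 14.42 to 15.17 in PBS. The part of these tissues in the values of the xenobiotic genes was not tested.

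Cyp1a2, the neighbour and close relative of Cyp1a1, was above PBS on all 12 arrays. Its log2 ratios were 0.58, 0.85 and 0.36 with gold of 20 nm on slides 1, 2 and 3, and 0.73, 0.61 and 0.66 with gold of 100 nm. With silicate they were 0.65, 0.61 and 0.31 at 20 nm, and 0.80, 0.33 and 0.39 at 100 nm. The signal was low, and the size of the ratio depends on how background is removed. With the processed signals of the scanner software the mean over all groups was 2.66, and it was 0.83 with no background correction, against 0.57 in the fit reported. The probe was well above background in 11 of 12 particle channels and 2 of 12 PBS channels. PBS was not well above background on any array of gold of 100 nm or silicate of 20 nm. With PBS set no lower than the lowest level called well above background in Cy3 on each array, the change was 1.495-fold and 1.39-fold. Unmeasured PBS can lie above that level, so these values are not strict lower limits. Against 0, the mean log2 ratios of these groups passed in limma (adjusted p = 0.0273 and 0.0491). Without slide 1, 2 or 3 these calls were lost, with adjusted p of 0.141 to 0.519 (limma). The values of 1.495-fold and 1.39-fold use normalized single channels and carry any dye bias, because Cy5 held the particle side on every array. Over all 4 groups the mean was 0.57 (adjusted p = 0.000203, limma), and the adjusted p ranged from 3.33e-05 to 0.0389 over the alternatives. In no group was PBS well above background on all 3 arrays, so the probe passed the filter through the particle channel only. The filter thus favoured ratios above 0, and these p-values are not independent of it. With the slide as a random block the calls of the single groups were lost (adjusted p = 0.0544 and 0.0913). The 250 bases before the start of Cyp1a2 held no GCGTG.

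Gsta1, a glutathione transferase with close paralogues that its probe may also read, had ratios of 1.08, 1.19 and -0.56 with gold of 20 nm, and 2.18, 1.51 and -0.070 with gold of 100 nm. With silicate they were 2.26, 0.73 and 0.63 at 20 nm, and 1.36, 0.15 and 0.41 at 100 nm. The mean was 0.91 (adjusted p = 0.0375), and it was 0.50 without slide 1 (adjusted p = 0.241). Without slide 2 the adjusted p was 0.277, with a random block 0.299, with processed signals 0.0775 and without the silicate arrays of slide 3 0.053. Pigment epithelium markers (9 of 10 measured) had medians of 1.43 to 3.05 on slide 1, 0.12 to 1.68 on slide 2 and -0.39 to 0.77 on slide 3. Their summed log2 level was 15.43 to 17.06 in the gold tubes, 15.51 to 16.57 in the silicate tubes and 14.18 to 16.05 in PBS, and their part in the Gsta1 values was not tested.

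The genes whose log2 ratios were most like those of Ahrr over the 12 arrays, out of 7683 genes with enough spread, were Ccdc113 (Pearson r = 0.95), Acbd7 (0.91), Gucy2d (0.90), Hspb6 (0.90) and Glb1l3 (0.89). These are descriptions, and the 12 points share PBS tubes within a slide. Ccdc113, a protein of cilia, averaged -0.051 with gold and -0.44 with silicate. Hspb6, a small heat-shock protein, averaged -0.19 and -0.50, and Acbd7, an acyl-CoA-binding protein, 0.0055 and -0.37. Glb1l3 spread most, from -2.20 to 0.73. Gucy2d was well above background in 12 of 12 particle channels and in 0 of 12 PBS channels, so its ratios have no measured PBS level under them and no size is given. None of the other members came near these values, with r to Ahrr of 0.38 for Ahr, -0.44 for Arnt, -0.59 for Cyp1b1 and -0.18 for Tiparp.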

How the data were processed

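The deposited files hold scanner intensity for each array, written by Agilent's Feature Extraction software (version 11.0.1.1 per the file headers; 9.3.2.1 in the submitters' processing notes). The log10 ratio deposited for each spot (Cy5 over Cy3) was set against the deposited value table, whose log2 values followed it with a slope of 3.3 to 3.32 per array and column medians of 0.016 to 0.11. Its centring is not given in the sources used here.

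Median intensities were corrected by normexp (offset 50) and normalized by loess within each array, with 1377 control spots at weight 0. Outlier spots (149 to 257 per array) were left out, and 0 were saturated. Probes were named through RefSeq accessions (6279 of 32334 unmatched). A probe was kept when well above background in 1 channel on all 3 arrays of a group (28460 of 39429), and the brightest stood for its gene, or the main probe, giving 23237 genes. The log2 ratios were fitted with limma 3.58.1 (R 4.3.3), 4 group means over 12 arrays. Tests were two-sided, p-values were adjusted by Benjamini-Hochberg across the whole gene set, and the threshold was 0.05. Levels are single channels after loess and Aquantile. The script was tested on simulated data.

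Members and lists were chosen with earlier results of these data known. Named are all members, pathway genes past the threshold in any comparison, and the 5 genes most like Ahrr by Pearson r (SD of at least 0.2). Replicate numbers equal slides per the file headers, which pairs the arrays. Deviations from group means correlated at 0.889 to 0.934 on slide 1, 0.0812 to 0.831 on slide 2 and 0.554 to 0.919 on slide 3. The p-values rest on the spread between 3 pooled tubes per group, whose number limits the precision. The fit reported treats all arrays as independent, although the arrays of a slide are assumed to share a PBS tube. For all particle groups against PBS, its p-values take no account of that sharing. Calls over all genes in that comparison fell from 3430 to 393 with the slide as a random block. For silicate against gold and for particle size, the fit reported does not use the pairing by slide. RefSeq supplied 250-base windows of GRCm38.p6 for 5 of the 6 members and for Cyp1a2. The arrays were annotated on another build, and no coordinate of theirs is given.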

Additional observations from a re-analysis of the deposited data

Results flagged for a closer look

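The second Ahrr probe read above PBS on all 3 arrays of gold of 20 nm and below PBS on all 3 arrays of silicate of 20 nm. The means differed by 0.407 on the log2 scale, and this difference was not tested, because Ahrr was chosen from its ratios. The main Ahrr probe was below PBS in both groups.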

How the results depend on the processing

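By its main probe, Ahrr kept its direction against PBS, and of silicate against gold, in all alternatives run. Its means were -0.95 to -0.82 for silicate of 20 nm and -0.71 to -0.41 for silicate of 100 nm. Its difference between particle sizes, 0.066, was -0.032 to 0.12 when a slide was left out. The alternatives reuse the probe and arrays from which Ahrr was chosen, so they show the effect of processing only. They leave out the second probe, which averaged 0.23 with gold of 20 nm. The consensus correlation within slides was 0.49. For members called in all 4 groups against PBS, the count of 1 became 0 with median centring, with the slide as a random replicate block, without the silicate arrays of slide 3, and whichever slide was left out. The fixed replicate block gave 1 member with gold of 100 nm and 1 with silicate of 20 nm, where it called 6.71% and 8.76% of all genes. That block leaves differences between the assumed PBS tubes out of the error. Over all genes, calls for all 4 groups numbered 3430 in the fit reported, 8089 with the fixed replicate block, 393 with the random block and 267 to 2111 when a slide was left out. With silicate of 20 nm, 76.2% of calls were higher, and 87.7% with median centring. Silicate against gold had 15 calls with the random block.

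Of the other pathway genes, gold of 20 nm had 0 calls, but 1 with median centring, 1 with no background correction and 2 with the fixed replicate block. Gold of 100 nm had 1, but 6 with the fixed block and 0 with the random block or without any 1 slide. Silicate of 20 nm had 1, but 7 with the fixed block and 0 with no filter, with each probe fitted by itself, with the random block, without any 1 slide, or without the silicate arrays of slide 3. Silicate of 100 nm had 0, but 1 with no background correction and 3 with the fixed block. All 4 groups had 6, but 13 with the fixed block, 1 with the random block, and 1 to 5 when a slide was left out.

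Some values changed sign. With processed signals, Arnt was 0.0028 with gold of 100 nm, -0.0061 with silicate of 20 nm and -0.029 for silicate against gold, and Tiparp was -0.011 with silicate of 100 nm and 0.014 for size. With median centring, Arnt was 0.023 with silicate of 100 nm and 0.029 for size, Epas1 0.00091 and Tiparp 0.062 for size. Tiparp for size was 0.00057 with no background correction and 0.0074 in the value table. Without the silicate arrays of slide 3, Arnt was -0.021, Cyp1b1 -0.028 (20 nm), -0.19 (100 nm) and -0.24 (all groups), and Tiparp -0.40 (100 nm) and -0.18 (silicate against gold). This setting compares unequal slides, and over slides 1 and 2 alone Tiparp was 0.042 for silicate against gold. Leaving out a slide gave, with gold of 20 nm, Ahr -0.27 to 0.084, Arnt -0.061 to 0.0072, Cyp1b1 -0.61 to 0.061 and Tiparp -0.49 to 0.31. It gave Tiparp -0.50 to 0.21 with gold of 100 nm. With silicate of 20 nm it gave Arnt -0.021 to 0.12, Cyp1b1 -0.028 to 0.95 and Tiparp -0.43 to 0.53. With silicate of 100 nm it gave Arnt -0.089 to 0.023, Cyp1b1 -0.19 to 0.95 and Tiparp -0.40 to 0.54. For all groups it gave Cyp1b1 -0.31 to 0.48 and Tiparp -0.43 to 0.40. It gave Ahr -0.16 to 0.0069 for silicate against gold, and for size Arnt -0.13 to 0.010 and Tiparp -0.044 to 0.021. The causes were not tested. Signal limits Cyp1a1, Cyp1a2 and the second probes of Ahr and Ahrr.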
